A study of Mus musculus with 4 samples.

Results

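The cells described here are the haematopoietic cells of the mouse fracture callus at 4 days post fracture (dpf), compared between arthritic (RA) mice and control mice. Single-cell RNA sequencing (scRNA-seq) marks each captured mRNA molecule with a unique molecular identifier (UMI), and a cell was kept with 4000 to 50000 UMIs, 2000 to 7000 detected genes and at most 8% of UMIs from mitochondrial genes. A kept cell was called haematopoietic when it held at least 1 raw UMI of Ptprc, which encodes the leukocyte surface phosphatase CD45, and at most 10 of Col1a1, a collagen gene of mesenchymal cells. By this rule 6016 of the 9580 kept cells at 4 dpf were haematopoietic, out of 25479 kept cells in the 4 libraries of the series. They divided into 3448 of 5470 kept cells (63.0%) in control_4d and 2568 of 4110 (62.5%) in RA_4d.

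All mice were wild-type, of the C57BL/6J strain and 3 months old, and all carried a fracture. The RA mice received K/BxN serum and the control mice received vehicle (PBS). Each library came from 1 pool of digested calluses, 4 by the labels, a number that the study's methods give differently, with 10000 cells loaded, so the 2 libraries at 4 dpf have no replicates. The difference between RA_4d and control_4d was therefore not tested, every interval below is a 95% interval that covers counting error only, and serum treatment and library preparation cannot be told apart. The libraries control_7d and RA_7d, taken at 7 dpf, are set beside them.

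K/BxN serum carries antibodies against glucose-6-phosphate isomerase, an enzyme that coats joint surfaces. Immune complexes form there and engage complement, through C5a and its receptor, and the Fc gamma receptors of neutrophils, macrophages and mast cells. Neutrophils are the main effector cells of this model, and leukotriene B4, interleukin 1 and CXC chemokines are known to draw them in. In a healing fracture the same blood-borne lineages clear the haematoma, and macrophages take on tissue repair programmes that include the arginase Arg1 and the matrix proteins osteopontin (Spp1) and fibronectin (Fn1).

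The rule set apart cells that carried haematopoietic markers. Tyrobp, an adaptor of myeloid and NK cell receptors, stood at 1678 CPM (counts per 1000000 UMIs) in the summed haematopoietic cells of control_4d and at 1386 CPM in RA_4d, against 44.3 and 29.4 CPM in the kept cells without a Ptprc UMI. Coro1a, a leukocyte actin-binding protein gene, stood at 361 and 419 CPM against 9.39 and 7.39 CPM. Col1a2 showed the opposite order, with 75.2 and 43.1 CPM against 7940 and 7096 CPM. The haematopoietic cells held 56966070 UMIs in control_4d and 45168572 in RA_4d, with a median of 14412 and 15109 UMIs, 3796 and 3810 genes and 2.01% and 1.84% mitochondrial UMIs per cell. At the edges of the rule, 253 and 188 of them had exactly 1 Ptprc UMI and 8 and 1 had 8 to 10 Col1a1 UMIs. A further 90 and 80 cells had Ptprc but over 10 Col1a1 UMIs, 2 and 3 of these with 11 to 13, and 88 and 52 cells had no Ptprc UMI but at least 20 UMIs of Tyrobp and Lyz2 together. The 2 libraries shared 2 cell barcodes among their haematopoietic cells.

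The make-up of these cells differed between the libraries. To describe it, each cell was placed in the first of a series of gates that it met, each gate being a minimum of raw UMIs of a few marker genes. Cells with at least 10 UMIs of S100a8, a calcium-binding alarmin of neutrophils, formed the neutrophil gate, which held 55 of 3448 cells in control_4d (1.60%, 1.20 to 2.07, exact Clopper-Pearson interval) and 255 of 2568 in RA_4d (9.93%, 8.80 to 11.2). The share was 6.23-fold higher in RA_4d (4.64 to 8.49), whereas it was 3.66% in control_7d and 3.01% in RA_7d. A looser cell filter, with at least 1000 UMIs and 500 genes and at most 15% mitochondrial UMIs, gave 3.41% and 12.9% at 4 dpf, a ratio of 3.79. The threshold lay in a thin range of values, since 24 and 35 cells had 5 to 9 S100a8 UMIs and 5 and 16 had 10 to 19.

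The T and NK gates were larger in RA_4d as well, but the B gate was not, at 1.42% and 1.36%, a ratio of 0.959 (0.603 to 1.51). The T gate (at least 2 UMIs of the CD3 subunit genes) held 40 cells (1.16%) in control_4d and 79 (3.08%) in RA_4d, a ratio of 2.65 (1.79 to 3.98). With the looser cell filter the T gate held 2.08% and 3.49%, a smaller difference. The NK gate (at least 3 UMIs of Ncr1, Klrb1c, Nkg7 and Gzma together) held 53 (1.54%) and 94 (3.66%), a ratio of 2.38 (1.68 to 3.40). Part of the NK gate was not lymphoid, as described below. At 7 dpf the T and NK ratios were 2.06 and 3.08, so that in both gates RA lay above control at both times. The monocyte gate (at least 5 UMIs of Ly6c2 and Plac8) went from 173 cells (5.02%) to 188 (7.32%), a ratio of 1.46 (1.18 to 1.80), and had a ratio of 0.934 at 7 dpf. Its cells need not be monocytes alone. The granule gene Prtn3 had a UMI in 10.4% of them in control_4d and 25.5% in RA_4d, and the MHC class II gene H2-Eb1 stood at 2243 and 859 CPM.

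C1q-high macrophages, cells with at least 10 UMIs of the complement genes C1qa, C1qb and C1qc, were the largest gate in both libraries. They made up 57.7% of the haematopoietic cells of control_4d (1991 cells, 56.1 to 59.4) and 45.5% of those of RA_4d (1169 cells, 43.6 to 47.5), a ratio of 0.788 (0.733 to 0.848). The dendritic gate went from 9.19% (317 cells) to 7.28% (187 cells), a ratio of 0.792 (0.658 to 0.952). The osteoclast gate, on Acp5 and Mmp9, held 7.95% (274 cells) and 7.59% (195 cells), a ratio of 0.956 whose interval of 0.791 to 1.15 included 1. This ratio turned to 1.44 with the gate thresholds doubled and to 1.55 on cells thinned to 4000 UMIs, so it has no firm direction. Other myeloid cells made up 12.9% and 11.5%. The gates are not pure cell types. The B gate, with 49 and 35 cells, carried C1qa at 2502 and 1650 CPM, and the ungated cells carried the endothelial gene Pecam1 at 720 and 575 CPM. Since shares add up to the whole, a larger share of one gate lowers the share of all others, and the shares say nothing about how many cells a callus held.

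**Figure D1:**
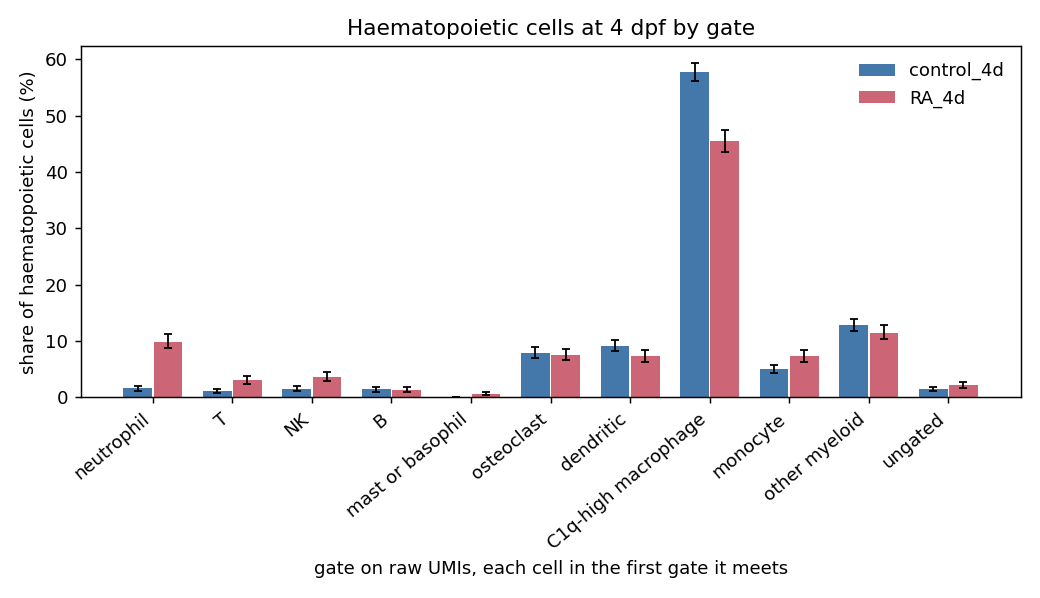
The bars give the share of haematopoietic cells (%, y axis) in each gate (x axis) for control_4d (blue) and RA_4d (red), and the error bars are exact 95% Clopper-Pearson intervals. The neutrophil, T, NK and monocyte bars are higher in RA_4d, the C1q-high macrophage bar is lower (57.7% against 45.5%), and the osteoclast bars have overlapping intervals.

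UMIs were then summed over all haematopoietic cells of a library, and each gene with at least 200 UMIs over both libraries was compared by its log2 ratio of CPM in RA_4d to CPM in control_4d, with 1 CPM added to both. Of 11794 genes, 613 (5.20%) were higher in RA_4d by 0.5 or more on this scale and 455 (3.86%) were lower by as much, with a median over all genes of 0.010. Each count of list members over all haematopoietic cells at 4 dpf below is to be set beside these shares. The 10 genes with the largest positive log2 ratios, among those that reached 50 CPM and 50 cells with a UMI in the library where they were higher, encode granule proteins, alarmins and related secreted proteins of neutrophils, of which Chil3 is also made by monocytes and macrophages. Camp, the cathelicidin antimicrobial peptide of secondary granules, went from 221 CPM in control_4d to 2841 CPM in RA_4d, a ratio of 12.8 (12.6 to 13.1), and stood at 671 and 675 CPM in control_7d and RA_7d. This interval leaves out the draw of cells, and in control_4d 29 cells of the neutrophil gate held 12566 Camp UMIs. Ngp, the neutrophilic granule protein, went from 174 to 1916 CPM (log2 ratio 3.45) and stood at 462 and 468 CPM at 7 dpf. S100a8 went from 1121 to 11120 CPM (log2 ratio 3.31) and stood at 3193 and 2562 CPM at 7 dpf, and its dimer partner S100a9 went from 1067 to 10194 CPM (log2 ratio 3.26). For all of these RA_4d was the highest and control_4d the lowest of the 4 libraries.

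Lcn2, the iron-sequestering lipocalin, went from 74.4 to 808 CPM, and Ltf, the iron-binding lactotransferrin, from 43.2 to 421 CPM. The opsonin gene Fcnb (log2 ratio 3.43), the secreted protein gene Wfdc21 (3.40), the peptidoglycan receptor gene Pglyrp1 (3.19) and the chitinase-like gene Chil3 (3.09, from 62.4 to 538 CPM) completed the 10. Of the 20 genes of a neutrophil granule and S100 list, 19 were higher by 0.5 or more and 0 were lower, with a median log2 ratio of 2.51. The exception was Csf3r, the receptor of the granulocyte growth factor, at 30.1 and 35.0 CPM. Primary granule genes of granulocyte precursors were among the 19, with Elane, the neutrophil elastase gene, at 49.5 and 376 CPM and Mpo, the myeloperoxidase gene, at 22.9 and 186 CPM.

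The promoters of these genes are shown because the genes moved together. Granule genes are known targets of C/EBP factors and of PU.1, and the 250 bases before the annotated start were searched on both strands for the letters TTGCNNAA, a C/EBP-type motif, and GAGGAAG, a PU.1-type motif, and no match of one overlaps a match of the other in the 4 sequences shown. Sequences are from RefSeq on GRCm38.p6, each written 5′ to 3′ on the strand of the gene, with motif matches in capitals. They are Camp at chr9:109849457-109849706 (minus strand), Ngp at chr9:110419558-110419807 (plus strand), Fcnb at chr2:28084879-28085128 (minus strand) and Lcn2 at chr2:32387740-32387989 (minus strand).
Camp: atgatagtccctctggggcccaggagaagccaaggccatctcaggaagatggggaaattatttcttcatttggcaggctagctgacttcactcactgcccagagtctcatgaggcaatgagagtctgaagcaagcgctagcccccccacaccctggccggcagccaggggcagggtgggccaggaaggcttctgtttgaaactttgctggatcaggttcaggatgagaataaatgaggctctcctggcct
Ngp: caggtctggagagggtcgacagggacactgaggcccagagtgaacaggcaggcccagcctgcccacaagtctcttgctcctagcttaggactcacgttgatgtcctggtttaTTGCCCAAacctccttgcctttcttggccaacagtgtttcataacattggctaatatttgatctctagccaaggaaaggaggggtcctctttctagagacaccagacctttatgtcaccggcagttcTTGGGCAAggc
Fcnb: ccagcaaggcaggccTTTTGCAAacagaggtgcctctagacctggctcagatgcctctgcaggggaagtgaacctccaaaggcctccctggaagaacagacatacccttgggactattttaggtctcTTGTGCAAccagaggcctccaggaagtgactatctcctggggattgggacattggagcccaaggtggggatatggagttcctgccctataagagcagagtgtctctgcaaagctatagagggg
Lcn2: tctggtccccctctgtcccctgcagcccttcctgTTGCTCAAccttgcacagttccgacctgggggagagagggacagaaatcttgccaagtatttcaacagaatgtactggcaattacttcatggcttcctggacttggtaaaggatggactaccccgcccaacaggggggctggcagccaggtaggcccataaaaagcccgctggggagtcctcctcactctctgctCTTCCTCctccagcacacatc
Of the 10 leading genes, 9 had a promoter in the RefSeq table, and 5 of these held the C/EBP-type letters (55.6%) and 3 the PU.1-type letters (33.3%). Of 18 genes of the neutrophil list with a promoter, 8 held the first letters (44.4%) and 9 the second, against 9.6% and 10.4% of the first promoters of all 27025 genes of the table. Ngp and Fcnb held the first motif 2 times each, and Camp held neither. A match describes these letters only.

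Within the neutrophil gate the levels of several genes differed between the libraries, although only 55 control cells were at hand. The looser cell filter placed 136 and 408 cells in this gate, against the 55 and 255 kept here. The stages of the gate's cells that the main filter left out were not examined, so the values below describe the kept cells only. The median S100a8 count per cell was 383 UMIs in control_4d and 1796 in RA_4d, at a median of 21884 and 23614 UMIs per cell. As S100a8 defines this gate, these counts are a description only. Secondary granule genes were at a higher level in the gate of RA_4d, with Camp at 9872 and 20557 CPM, Ngp at 7773 and 13869 CPM and Lcn2 at 3248 and 5827 CPM. Primary granule genes were close, with Elane at 2203 and 2534 CPM and Mpo at 968 and 1152 CPM. Genes of later stages were mixed. Retnlg stood at 2171 and 1099 CPM, Il1b, encoding interleukin 1 beta, at 251 and 82.9 CPM, Cxcr2, the chemokine receptor of mature neutrophils, at 76.2 and 54.5 CPM, and the gelatinase gene Mmp9 at 260 and 252 CPM. The collagenase gene Mmp8 stood at 147 and 266 CPM, Ly6g, a neutrophil surface gene, at 75.4 and 87.3 CPM and Csf3r at 106 and 86.9 CPM, and a Retnlg UMI was found in 43.6% and 51.4% of the cells.

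Counted by cell, 27 of 55 cells (49.1%, 35.4 to 62.9) in control_4d and 171 of 255 (67.1%) in RA_4d held at least 10 UMIs of the secondary granule genes. The control interval is wide and none was taken for RA_4d, so these shares are not read as apart. Cells with at least 10 UMIs of the primary granule genes made up 25.5% (14.7 to 39.0) and 29.4% (23.9 to 35.4), intervals that overlap widely. Cells with at least 10 UMIs of the late-stage genes made up 30.9% and 32.5%. Cycling cells, with at least 3 UMIs of cell cycle genes, made up 32.7% (20.7 to 46.7) and 50.6% (44.3 to 56.9). Outside the gate, 3 of 3393 and 21 of 2313 haematopoietic cells held at least 10 UMIs of the primary granule genes. The control gate also carried macrophage RNA, with Spp1 at 3112 CPM against 389 CPM in RA_4d and the C1q gene C1qb at 290 CPM against 58.0 CPM. Over the 4634 genes compared within this gate, the scaling factor from trimmed means was -0.218 in log2. Scaling by it would raise all log2 ratios there by this size, so that ratios of this size depend on the scaling and have no firm direction.

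Neutrophil RNA was also present outside neutrophils, at a level that differed between the libraries. An S100a8 UMI was found in 6.68% of the 1932 cells without Ptprc in control_4d and in 54.1% of the 1462 such cells in RA_4d, at median depths of 24126 and 23712 UMIs. Among haematopoietic cells below the S100a8 threshold the shares were 16.2% and 55.5%. For Camp the shares without Ptprc were 2.07% and 17.2%, and those below the threshold were 0.796% and 15.6%. For Lcn2 in RA_4d the shares were 13.7% without Ptprc and 7.57% below the threshold, and in control_4d they were 10.0% and 1.30%. The shares of Camp and Lcn2 below the threshold in RA_4d thus lay under those in cells without Ptprc and are not read as expression. For Camp the order depended on the measure, at 8.62 CPM without Ptprc and 10.1 CPM below the threshold. Lcn2 kept its order, at 14.6 and 6.32 CPM. In control_4d Lcn2 stood at 29.9 CPM without Ptprc and 1.83 CPM below the threshold, so that without Ptprc it was lower in RA_4d. Whether Lcn2 RNA in cells without Ptprc was carried over or their own was not tested. Elane and Mpo in RA_4d stood at 18.9 and 9.89 CPM without Ptprc and 31.2 and 32.2 CPM below the threshold. Their shares were closer, at 4.17% and 4.38% without Ptprc and 4.58% and 5.40% below the threshold. Cells without Ptprc are not free of myeloid cells, since 5 of them in RA_4d held at least 10 S100a8 UMIs. Chil3 had a different distribution, with a UMI in 1.35% and 6.43% of the cells without Ptprc but in 14.1% and 34.3% of C1q-high macrophages.

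**Figure D2:**
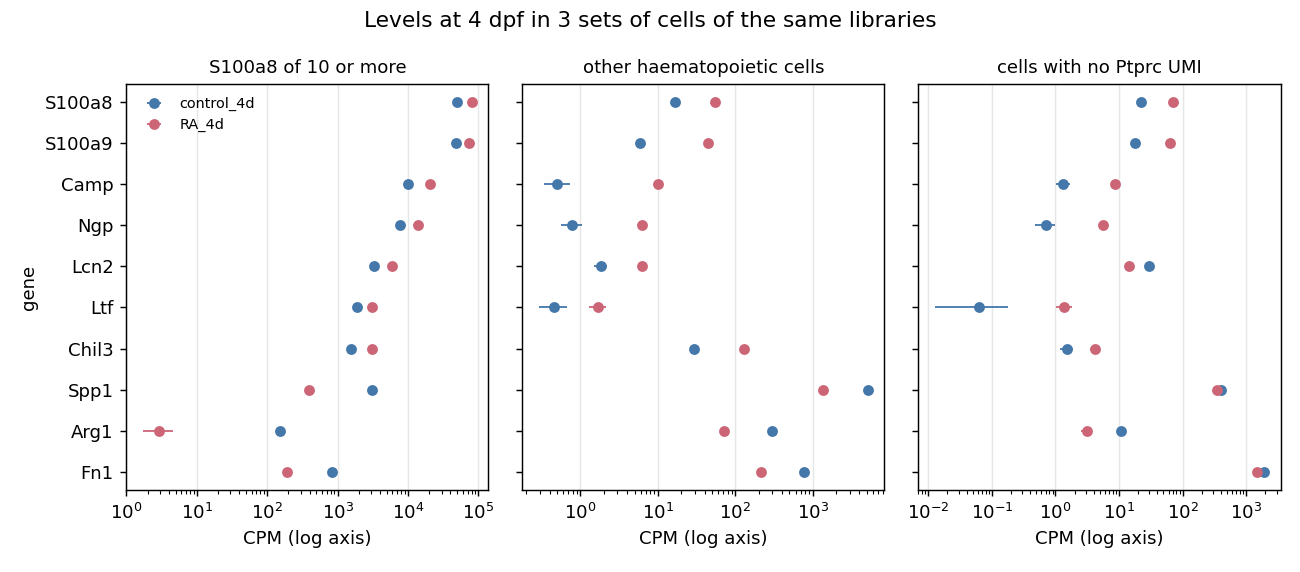
The levels of 10 genes (CPM, logarithmic x axes) in control_4d (blue) and RA_4d (red) are plotted for cells with at least 10 S100a8 UMIs, for the other haematopoietic cells and for cells without a Ptprc UMI, and the bars are exact 95% Poisson intervals. The granule genes are higher in RA_4d in the first 2 sets and, apart from Lcn2, in the third, whereas Spp1, Arg1 and Fn1 are lower in RA_4d in all 3.

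With the cells of the neutrophil gate left out, 3393 cells of control_4d and 2313 of RA_4d remained. Of 11595 genes compared among them, 361 (3.11%) were higher in RA_4d by 0.5 or more and 356 (3.07%) were lower. Of the genes higher in all haematopoietic cells that could still be compared, 294 of 537 remained past this size, as did 302 of 443 lower ones, in sets that share most of their cells. Under the same minimum of 50 CPM and 50 cells, which Camp (0.503 and 10.1 CPM, log2 ratio 2.88) and S100a9 (5.91 and 45.0 CPM, 2.74) no longer met, the 10 largest positive log2 ratios included those of Chil3 (29.0 to 128 CPM, log2 ratio 2.10), S100a8 (1.67), the NK cell granzyme gene Gzma (19.8 to 54.1 CPM, 1.41), the chemokine gene Ccl5 (1.14), the monocyte surface gene Ly6c2 (0.98), the immediate early gene Egr1 (0.89), the lymphoid phosphatase gene Ptpn22 (0.89), the AP-1 family gene Jdp2 (0.88) and the interferon-inducible gene Ifi205 (0.85). The S100a8 that was left came to a mean of 0.270 and 0.919 UMIs per cell, against 0.0699 and 0.826 in cells without Ptprc under the same threshold.

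Lymphocyte genes were higher in RA_4d. Of 19 genes of a T and cytotoxic lymphocyte list, 15 were higher by 0.5 or more and 0 were lower, with a median log2 ratio of 1.08, and the median at 7 dpf was 1.16. The median at 4 dpf was -0.01 when gates of at least 50 cells were weighted equally, which leaves out the T gate. Trbc2, a T cell receptor constant gene, went from 4.86 to 16.9 CPM, and the CD3 gene Cd3e from 1.37 to 4.38 CPM. Among cytotoxic genes, the granule protein gene Nkg7 went from 15.1 to 49.1 CPM and stood at 23.9 and 66.4 CPM at 7 dpf, Gzmb, encoding granzyme B, went from 3.41 to 17.3 CPM, and Gzma from 19.3 to 46.8 CPM, with 37.8 and 100 CPM at 7 dpf. Nkg7 was not confined to lymphoid gates, at 152 and 170 CPM in the neutrophil gate at 4 dpf. That gate held 2.23% of the UMIs in control_4d and 13.8% in RA_4d. The gamma delta T cell gene Trdc, at 2.33 and 1.68 CPM, did not follow the list. In the NK gate itself Gzma stood at 1704 and 1601 CPM and Ncr1, the NK receptor NKp46, at 163 and 114 CPM, which is a description only, since both genes are part of the rule of this gate.

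The NK gate held other cells beside lymphocytes in both libraries, which bears on its share and on every level within it. The primary granule gene Prtn3 had a UMI in 2 of its cells in control_4d and 13 in RA_4d. Cpa3, a mast cell and basophil gene, had a UMI in 0 and 7. In control_4d it carried Spp1 at 2519 CPM and C1qa at 447 CPM, against 84.0 and 30.3 CPM in RA_4d, and in RA_4d it carried Elane at 801 CPM and Mpo at 726 CPM, against 0 and 11.5 CPM. Type 3 lymphocyte genes were scarce. The interleukin 17A gene Il17a stood at 0.386 CPM in control_4d with no UMI in RA_4d. Of 7 type 3 genes compared 1 was higher and 1 lower, beside 5.20% and 3.86% of all genes. B cell genes did not differ by 0.5 in size in any of 5 compared.

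A few basophil-type cells were found in RA_4d. Mcpt8, a protease gene of mouse basophils, had 7 UMIs in the haematopoietic cells of control_4d and 1511 in those of RA_4d (0.123 and 33.5 CPM), and 671 and 1 UMIs in control_7d and RA_7d. In cells without Ptprc, which the rule leaves out, it stood at 2.41 CPM in control_4d and 5.39 CPM in RA_4d. Cells with at least 10 Mcpt8 UMIs, a count chosen after these values were seen, numbered 0 of 3448 in control_4d, which allows a share of up to 0.107%, and 10 of 2568 in RA_4d (0.389%, 0.187 to 0.715), with 3 in control_7d and 0 in RA_7d. The 10 cells of RA_4d held 1432 of the Mcpt8 UMIs, 931 of 932 UMIs of Prss34, a second basophil protease gene, and 480 of 599 UMIs of the carboxypeptidase gene Cpa3. They also held 604 of the 694 UMIs of Il4 and 231 of the 438 UMIs of Il6, the genes of interleukins 4 and 6. Il6 stood at 1.77 CPM over all haematopoietic cells of control_4d and 9.70 CPM in RA_4d, where 78.3% of its UMIs lay in the mast or basophil gate, and at 1.17 and 1.31 CPM in C1q-high macrophages. Mcpt4, a connective tissue mast cell protease gene, had the opposite pattern, at 5.97 CPM in control_4d, where 1 cell met the mast or basophil gate, and with no UMI in RA_4d. With 10 and 1 cells, these sums describe those cells and little else.

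Monocyte genes were split. Of 14 genes of a monocyte list, 7 were higher by 0.5 or more and 2 were lower, with a median log2 ratio of 0.46 over all haematopoietic cells and 0.27 without the neutrophil gate. Ly6c2 went from 73.1 to 229 CPM, but in RA_4d 59.6% of its UMIs lay in the neutrophil gate, as did 77.0% of those of the haptoglobin gene Hp, which went from 29.2 to 160 CPM. Ccr2, the receptor that brings monocytes out of marrow, stood at 205 and 181 CPM. Within the monocyte gate, Saa3, an acute phase protein gene, went from 8.65 to 106 CPM, Chil3 from 333 to 1008 CPM, the primary granule gene Prtn3 from 19.3 to 145 CPM and the cell cycle gene Top2a from 16.8 to 116 CPM. The NK cell gene Klrd1 went from 134 to 18.7 CPM there. At 7 dpf Prtn3 and Top2a had log2 ratios of -1.18 and -3.13 in this gate, which is a small one at both times.

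On the lower side, repair genes of macrophages stood out. Of 21 genes of a macrophage repair list, 11 were lower by 0.5 or more and 2 were higher, Chil3 and Ero1l, with a median log2 ratio of -0.50 in all haematopoietic cells and -0.23 in C1q-high macrophages. Arg1, which turns arginine into ornithine, went from 291 to 62.0 CPM, a ratio of 0.213 (0.205 to 0.222), and stood at 89.8 and 36.1 CPM at 7 dpf. Spp1 went from 5092 to 1212 CPM, a ratio of 0.238 (0.236 to 0.240), and stood at 1618 and 908 CPM at 7 dpf. Fn1 went from 768 to 210 CPM, but stood at 550 and 676 CPM at 7 dpf, where RA was the higher. On GRCm38, Arg1 lies on chromosome 10 (24915221 to 24927484), Spp1 on chromosome 5 (104435118 to 104441050) and Fn1 on chromosome 1 (71585520 to 71653200). For Arg1 and Spp1 control_4d was the highest of the 4 libraries and RA_7d the lowest, and for Fn1 RA_4d was the lowest.

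These genes were lower within C1q-high macrophages too. Arg1 went from 343 to 96.3 CPM there, with a UMI in 41.3% and 26.9% of the cells, or in 29.4% (27.4 to 31.4) and 16.8% (14.7 to 19.0) when each cell was thinned at random to 4000 UMIs. The median macrophage held no Arg1 UMI in either library. For Spp1 the median macrophage held 9.16 and 2.25 UMIs per 10000 and the sum went from 4771 to 2014 CPM. For Fn1 the sum went from 794 to 179 CPM and the share of thinned cells with a UMI from 52.2% to 23.5%. Lyz2, the lysozyme gene that almost every macrophage expresses, had a median of 84.0 and 52.5 UMIs per 10000. The tetraspanin gene Cd9 went from 287 to 118 CPM and Retnla, a gene of alternatively activated macrophages, from 14.8 to 0.998 CPM, while Gpnmb (380 and 324 CPM) and Hmox1, the haem oxygenase gene (2065 and 1966 CPM), were closer. Of 9930 genes compared in C1q-high macrophages, 123 (1.24%) were higher by 0.5 or more and 296 (2.98%) were lower.

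Some of this RNA was found in cells without Ptprc as well, a few of which were myeloid. In cells without Ptprc a Spp1 UMI was present in 70.6% in control_4d and 36.1% in RA_4d, with sums of 406 and 345 CPM, and a Lyz2 UMI in 64.6% and 43.4%. An Arg1 UMI was present in 5.75% and 2.87% of them, with sums of 10.8 and 3.08 CPM. Haemoglobin genes, which mature blood cells other than erythroid cells do not use, led the list of lower genes, with Hbb-bs at 343 and 12.6 CPM in haematopoietic cells and 348 and 20.3 CPM in cells without Ptprc. A Hbb-bs UMI was present in 73.3% and 6.70% of the latter. The RA_4d library stood apart from the other 3, since control_7d and RA_7d had Hbb-bs at 475 and 361 CPM in haematopoietic cells. Mesenchymal genes were lower in haematopoietic cells of RA_4d too, with Col3a1 at 87.6 and 36.3 CPM and 9 of 11 genes of the list lower by 0.5 or more. The part of such carried-over RNA in the differences above was not tested. Over cells without Ptprc, 393 of 12801 genes compared (3.07%) were higher in RA_4d by 0.5 or more and 277 (2.16%) were lower.

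Genes of tissue-resident macrophages were lower as a group at 4 dpf. Of 15 genes of a resident-type macrophage list, 13 were lower by 0.5 or more and 0 were higher, with a median log2 ratio of -0.77 over all haematopoietic cells. In C1q-high macrophages 6 of 14 were lower and the median was -0.42, and at 7 dpf the median over all haematopoietic cells was 0.48. The folate receptor gene Folr2 went from 157 to 80.4 CPM and stood at 79.7 and 166 CPM at 7 dpf. Cbr2, a carbonyl reductase gene, went from 184 to 71.6 CPM and stood at 63.4 and 97.8 CPM at 7 dpf, and Fcrls went from 182 to 67.6 CPM and stood at 120 and 127 CPM. Low-level members followed, with the hyaluronan receptor gene Lyve1 at 11.5 and 3.92 CPM and the complement receptor gene Vsig4 at 5.53 and 1.04 CPM. The mannose receptor gene Mrc1 went from 756 to 505 CPM, but within C1q-high macrophages it was closer, at 1186 and 1045 CPM, with a thinned share of 81.8% and 81.2%. The transcription factor gene Maf, at 455 and 421 CPM, was not lower by 0.5.

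Over all haematopoietic cells, MHC class II genes, which present antigen to CD4 T cells, were lower as a group at 4 dpf. At 7 dpf their median was above 0 but under 0.5. Of 11 genes, 6 were lower by 0.5 or more at 4 dpf, with a median log2 ratio of -0.50, and the median at 7 dpf was 0.38. H2-Eb1 went from 1398 to 982 CPM and stood at 1547 and 2050 CPM at 7 dpf, and the invariant chain gene Cd74 went from 2732 to 1970 CPM. Without the neutrophil gate the log2 ratio of H2-Eb1 at 4 dpf was -0.34, not past 0.5 in size. Within C1q-high macrophages none of 9 passed 0.5 in size, with a median of -0.24. Class I genes did not differ by 0.5 in any of 13, with a median of -0.07.

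The receptors that K/BxN serum is known to engage differed little. Of 16 genes of Fc gamma receptors and their signalling, 1 was higher by 0.5 or more and 0 were lower, with a median log2 ratio of 0.04. Over all genes compared 5.20% were higher and 3.86% lower, so these counts are not particular to the list. The activating receptors Fcgr1 (142 and 129 CPM), Fcgr3 (215 and 164 CPM) and Fcgr4 (50.2 and 53.9 CPM), the inhibitory receptor Fcgr2b (342 and 248 CPM), their common chain Fcer1g (1730 and 1492 CPM) and the kinase Syk (302 and 301 CPM) stayed within 0.5. Trem1, an amplifying receptor of neutrophils, was the exception at 7.34 and 12.4 CPM. In C1q-high macrophages Fcgr4 stood at 68.7 and 93.1 CPM and Fcgr1 at 192 and 231 CPM.

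Complement genes were lower more often than higher, with 6 and 2 of 18 past 0.5 and a median log2 ratio of -0.35. Of all genes compared, 3.86% were lower and 5.20% higher by as much. The C5a receptor gene C5ar1 stood at 192 and 164 CPM. C1qa went from 1608 to 986 CPM over all haematopoietic cells, and within the macrophage gate, which C1q genes define, it stood at 2535 and 2195 CPM. C3, the central component, was higher, at 43.8 and 79.1 CPM, and 51.5% of its UMIs in RA_4d lay in the neutrophil gate. Cd55, which limits the C3 convertase, had a log2 ratio of 1.31 in C1q-high macrophages, from 3.84 CPM in control_4d. Itgax, the complement receptor integrin CD11c, went from 40.4 to 17.0 CPM.

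Leukotriene genes split by the cell that carried them. Lta4h, the enzyme that makes leukotriene B4, went from 38.3 to 75.3 CPM, with 57.4% of its UMIs in RA_4d in the neutrophil gate, and it stood at 33.4 and 35.1 CPM in C1q-high macrophages. The receptor gene Ltb4r1 went from 24.4 to 38.7 CPM over all haematopoietic cells but stood at 12.9 and 8.14 CPM in C1q-high macrophages. Ltc4s, which makes leukotriene C4, went from 32.9 to 7.95 CPM and from 44.1 to 12.0 CPM in C1q-high macrophages, and Alox5, the first enzyme of the pathway, from 16.3 to 5.83 CPM there. The list of 15 genes had a median of -0.08.

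Cytokine genes of the model were mostly close. Il1b stood at 171 and 145 CPM and Tnf at 35.4 and 32.2 CPM. Of 12 genes of the interleukin 1 family 2 were higher by 0.5 or more, Il1rl1 (2.97 and 5.47 CPM) and Il18r1 (3.23 and 7.70 CPM), which lymphocytes, mast cells and basophils use as receptors of interleukins 33 and 18. Neutrophil-recruiting CXC chemokine genes were lower, with Cxcl1 at 23.9 and 11.6 CPM, Cxcl3 at 32.0 and 13.6 CPM and Ppbp at 32.6 and 9.67 CPM, while Cxcl2, the most abundant, stood at 381 and 315 CPM. Their receptor gene Cxcr2 was higher over all haematopoietic cells, at 2.40 and 8.63 CPM, but stood at 76.2 and 54.5 CPM within the neutrophil gate.

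CC chemokine genes had 6 lower and 2 higher by 0.5 or more among 16. Ccl8, a chemokine gene of resident-type macrophages, went from 1322 to 600 CPM, a ratio of 0.454 (0.447 to 0.460), and stood at 651 and 1786 CPM at 7 dpf, so that its order was reversed between the times. Ccl6 went from 649 to 297 CPM and Ccl24, an eosinophil attractant, from 26.9 to 5.09 CPM. Ccl22 went from 16.6 to 2.41 CPM, and 95.6% of its UMIs in control_4d lay in the dendritic gate, where it stood at 204 and 21.4 CPM. Ccl4 went from 167 to 252 CPM and Ccl5 from 84.4 to 148 CPM. The monocyte attractant genes Ccl2 (363 and 331 CPM) and Ccl7 (282 and 301 CPM) were close at 4 dpf.

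Several genes were higher within C1q-high macrophages. Chil3 went from 18.8 to 77.6 CPM, with a thinned share of 6.03% and 16.7% of cells. Spic, a transcription factor of iron-recycling macrophages, went from 19.5 to 51.6 CPM, with a thinned share of 5.42% (4.47 to 6.51) and 13.5% (11.6 to 15.6), and Egr1 from 39.0 to 86.3 CPM. The rise of Egr1 was not particular to macrophages, with a log2 ratio of 1.13 there and 0.86 in cells without Ptprc. Sirpb1c, of the signal regulatory protein family, went from 28.1 to 56.9 CPM. At 7 dpf Spic (59.2 and 37.6 CPM), Sirpb1c (37.8 and 29.5 CPM) and Chil3 (10.2 and 7.83 CPM) had the opposite order in these cells, and Egr1 (42.5 and 142 CPM) the same. Fkbp5, which glucocorticoids induce, went from 12.9 to 39.4 CPM, and over all haematopoietic cells it stood at 15.6 and 41.0 CPM, against 15.1 and 21.5 CPM at 7 dpf. The lipoprotein lipase gene Lpl went from 266 to 491 CPM and the cholesterol exporter gene Abcg1 from 107 to 166 CPM.

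Interferon response genes were close to even, with 1 of 29 higher and 2 lower and a median of -0.06 over all haematopoietic cells. All genes compared had shares of 5.20% higher and 3.86% lower. In C1q-high macrophages 4 of 28 were higher and 2 lower, with a median of 0.24, beside 1.24% and 2.98% of all genes. Cxcl9, an interferon gamma target, went from 1.94 to 11.8 CPM there, and Irf7 stood at 128 and 165 CPM, while Cxcl10 went from 55.7 to 38.5 CPM. At 7 dpf the median over all haematopoietic cells was -0.32, with 11 of 28 genes lower by 0.5 or more, where 2.66% of all 10946 genes compared were lower and 8.52% higher.

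Osteoclast genes were modestly higher at 4 dpf. Of 14 genes, 6 were higher by 0.5 or more and 0 lower, with a median log2 ratio of 0.21, against -0.76 at 7 dpf. The fusion gene Ocstamp went from 11.6 to 19.2 CPM and Nfatc1, the master regulator of the lineage, from 87.1 to 128 CPM, while the cathepsin K gene Ctsk stood at 356 and 432 CPM. Within the osteoclast gate the transferrin receptor gene Tfrc went from 174 to 402 CPM, and Spp1 went from 8502 to 797 CPM. The gate had more macrophage RNA in control_4d, with C1qa at 778 and 207 CPM.

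In the dendritic gate the genes Plet1 (18.7 and 69.4 CPM), Cadm1, an adhesion gene of type 1 dendritic cells (27.3 and 83.0 CPM), and Top2a (39.5 and 123 CPM) were higher in RA_4d. The list of dendritic cell genes had 3 of 16 lower by 0.5 or more and 0 higher. Xcr1, which marks type 1 dendritic cells, stood at 1.95 and 3.06 CPM and Ccr7, which guides mature dendritic cells to lymph nodes, at 35.4 and 23.5 CPM. In the other myeloid gate Chil3 went from 36.3 to 159 CPM and the macrophage elastase gene Mmp12 from 88.4 to 252 CPM, while Arg1 went from 631 to 119 CPM and Spp1 from 8815 to 1699 CPM.

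**Figure D3:**
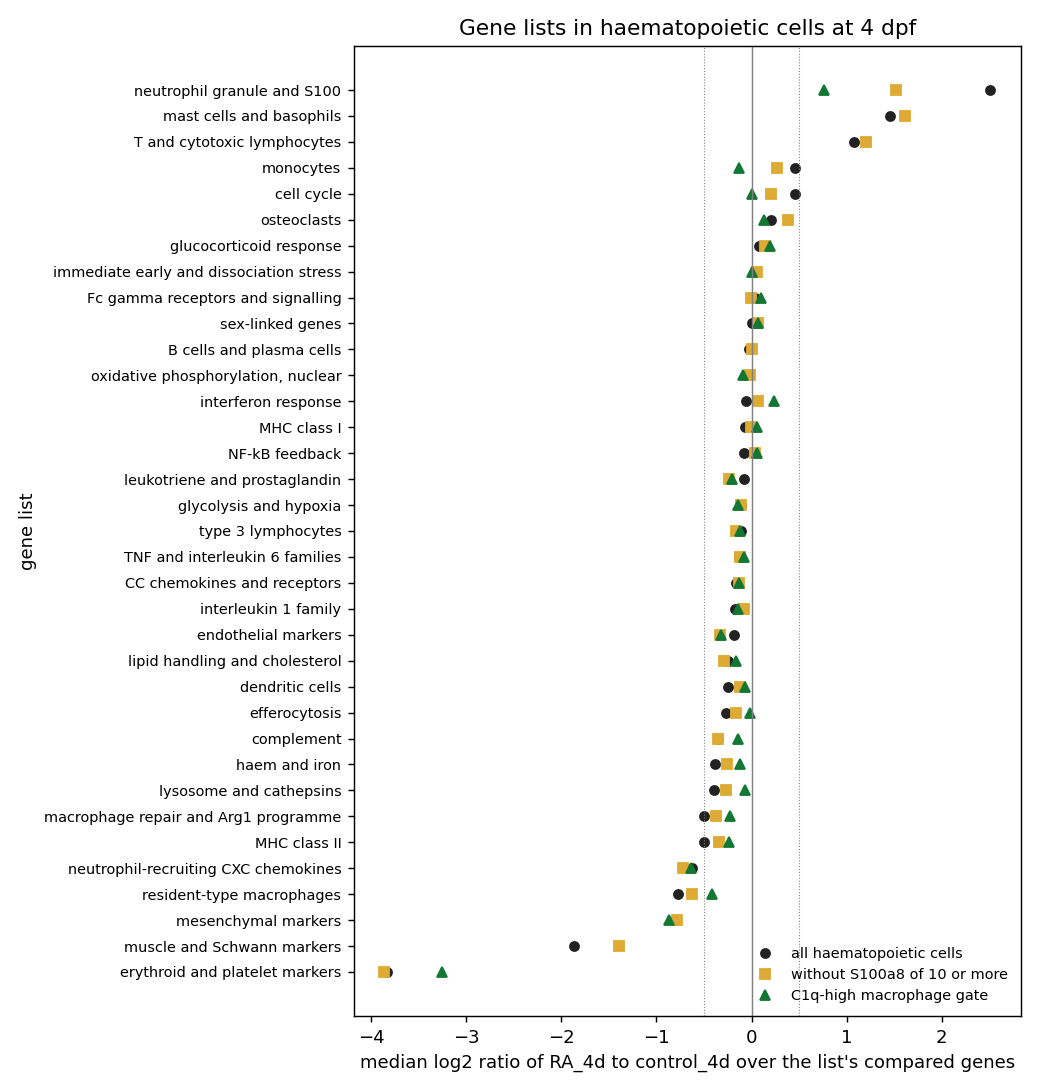
Each row is a gene list and each symbol the median log2 ratio of RA_4d to control_4d (x axis) over the list's genes with enough UMIs, for all haematopoietic cells (circles), without the neutrophil gate (squares) and for C1q-high macrophages (triangles), where at least 4 genes could be compared, and dotted lines mark 0.5 in size. The neutrophil list leads at 2.51, the resident-type list lies at -0.77 and -0.42 in all cells and in macrophages, and most lists lie between the dotted lines.

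The contribution of make-up and of levels was set apart by arithmetic, a calculation chosen after the values were seen. First the gate shares of summed UMIs were taken from RA_4d and the levels within gates from control_4d, and then the reverse. With the make-up alone changed, 383 of 11794 genes were higher by 0.5 or more and 0 were lower. The 0 was fixed by the shares, as no gate's share of UMIs fell by 0.5 in log2. The largest fall was that of C1q-high macrophages, from 57.1% to 42.2% of UMIs. With the levels alone changed, 162 were higher and 370 were lower, against 613 and 455 as measured. For Camp the log2 ratio was 2.62 from make-up and 1.08 from levels, and for Gzma it was 1.36 and -0.13. For Chil3 both terms were large, at 1.95 and 1.43. For Arg1 they were -0.20 and -1.91, for Spp1 -0.10 and -1.78 and for Fn1 -0.05 and -1.88. Spic had a negative make-up term (-0.30) and a positive level term (1.32). Gzma is part of the rule of the NK gate, so that its terms are fixed in part by that rule and nothing is read from them. For Camp the make-up term was the larger. Camp stood at 9872 and 20557 CPM in the neutrophil gate and at 0.503 and 10.1 CPM outside it. Its make-up term thus restates that gate's share of UMIs, 2.23% and 13.8%, and nothing more is read from it. For Arg1, Spp1 and Fn1 the level term was the larger, within gates whose cells need not be alike between the libraries. As a make-up term could not pass 0.5 on the lower side, the order of the terms for these lower genes was fixed by the shares and nothing is read from it.

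**Figure D4:**
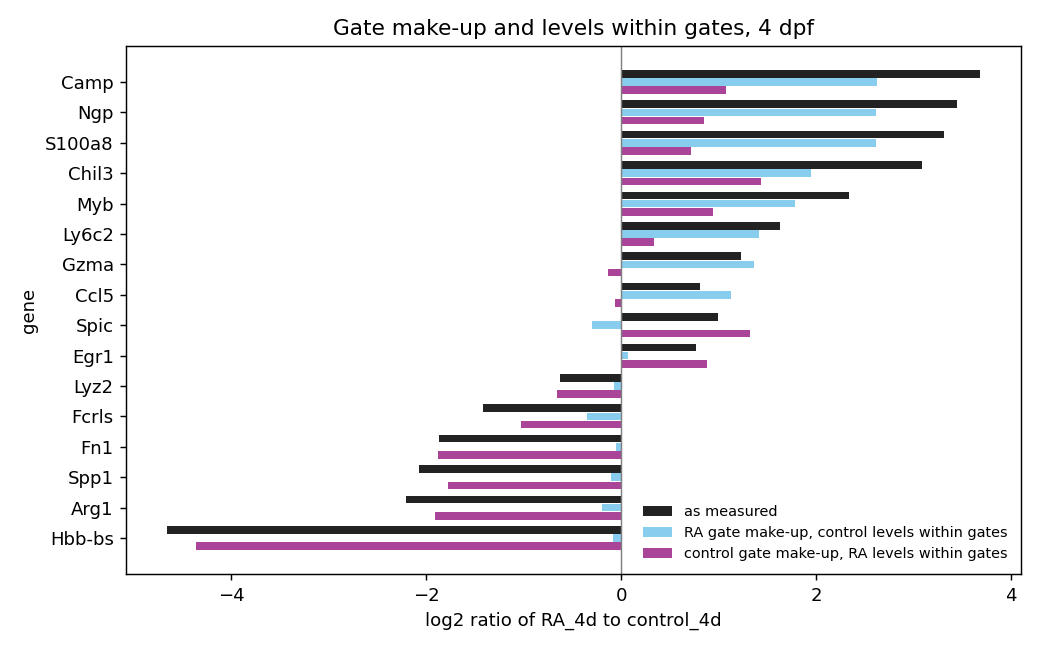
For 16 genes the bars give the log2 ratio of RA_4d to control_4d (x axis) as measured (black), with only the gate make-up changed (light blue) and with only the levels within gates changed (purple). The make-up bar is the longer coloured bar for Camp (2.62) and for Gzma (1.36), a gene that the NK gate is built on, and the level bar is the longer one for Arg1 (-1.91), Spp1 (-1.78) and Fn1 (-1.88).

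Not all of the differences at 4 dpf were present at 7 dpf, in libraries that share no cells with them. None of the 10 leading higher genes differed by 0.5 in size at 7 dpf, with log2 ratios between -0.32 and 0.40. Of the 10 leading lower genes, 4 were again lower by 0.5 or more, Arg1 (-1.29), Spp1 (-0.83), the podoplanin gene Pdpn (-0.67) and Tppp3 (-0.51). Of the 503 genes higher by 0.5 or more at 4 dpf that could be compared at 7 dpf, 344 (68.4%) had a ratio above 0 there, against 53.2% of all genes. At 7 dpf 193 of the 503 were again higher by 0.5 or more and 37 were lower by as much. Of the 409 lower genes 161 (39.4%) were below 0, against 46.8% of all genes. Of the 409, 37 were again lower by 0.5 or more and 94 were higher by as much. Over all genes compared at 7 dpf, 8.52% were higher and 2.66% lower by 0.5 or more. Without the neutrophil gate, 916 of 10747 genes (8.52%) were higher at 7 dpf and 312 (2.90%) lower. In these cells Gzma, Ccl5 and Egr1 were higher at both times, with log2 ratios of 1.41, 1.83 and 1.48 at 7 dpf, and Chil3, at 0.20, was not past 0.5.

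**Figure D5:**
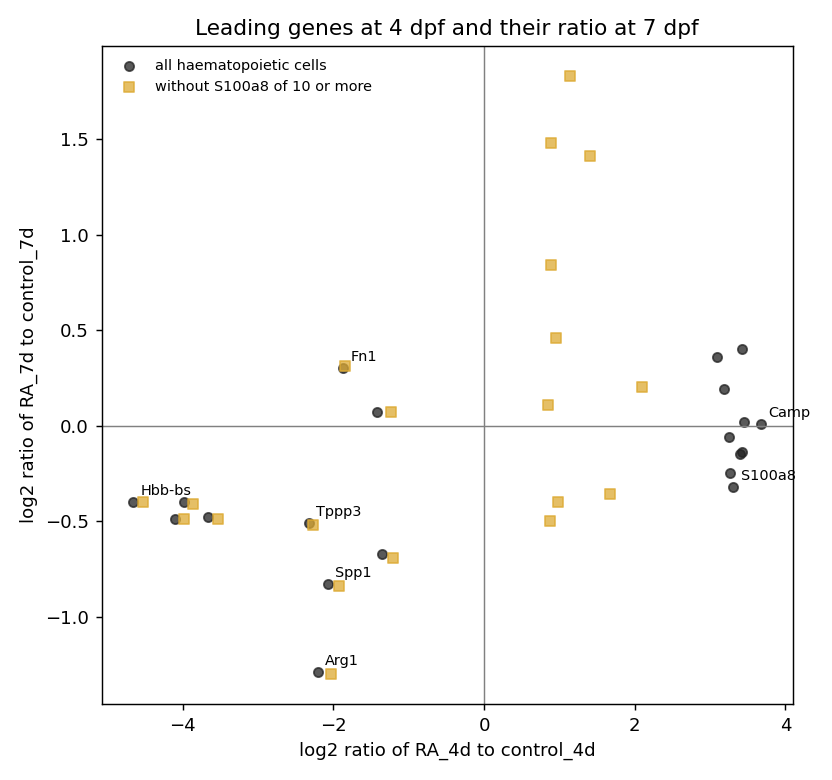
Points are the leading genes at 4 dpf, with the log2 ratio of RA_4d to control_4d on the x axis and that of RA_7d to control_7d on the y axis, for all haematopoietic cells (circles) and without the neutrophil gate (squares). The circles on the right, Camp and S100a8 among them, lie between -0.32 and 0.40 at 7 dpf, while Arg1 and Spp1 lie below 0 on both axes and Fn1 lies below 0 at 4 dpf and above 0 at 7 dpf.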

How the data were processed

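The authors deposited, for each of 4 libraries, the raw UMI counts of every gene in every cell barcode, made with Cell Ranger 7.0.1 according to the submitters' processing notes. No normalization had been applied, and the cell filter was that of the study's methods. Counts were summed over the haematopoietic cells of a library and scaled to CPM. Log2 ratios were taken with 1 CPM added to both sides, where a gene reached 200 UMIs in the pair of libraries together, with no test because there was 1 library a side. Gates were applied to raw UMIs in a fixed order. No doublets were removed. Scrublet called 0.932% of the kept cells of control_4d and 0.9% of RA_4d, and leaving these out was an alternative, as was leaving out the 5% with the highest scores. Intervals are 95% exact Poisson, Clopper-Pearson or conditional intervals, and PCR and pooling add error that they do not cover. Those of UMI sums and their ratios treat each UMI as a separate draw and leave out the draw of cells.

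Named genes are the 10 largest log2 ratios in each direction over all haematopoietic cells and without the neutrophil gate, 5 in each direction within gates of at least 50 cells, up to 4 members of each list and the genes of the rule and gates. Other list members were named after their values were seen. The cells, the 35 gene lists and the alternatives were chosen with earlier results of these data known. Of 545 list symbols 4 were not matched. Gene positions are those of GENCODE on GRCm38 and promoters those of RefSeq on GRCm38.p6. The sums and intervals were tested on simulated data. Python 3.11.15 was used with numpy 2.4.6, scipy 1.17.1, pandas 2.3.3, scanpy 1.11.5 and matplotlib 3.10.9. A few genes that these rules name are not reported here.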

Additional observations from a re-analysis of the deposited data

Results flagged for a closer look

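Some differences had one sign at 4 dpf and the other at 7 dpf. With 1 library for each time and treatment these differences between times were not tested. Over all haematopoietic cells the log2 ratio (RA over control) was -1.14 at 4 dpf and 1.45 at 7 dpf for Ccl8, 4.94 and -4.23 for Mcpt8, and 1.87 and -1.50 for Cpa3. Without the neutrophil gate it was 5.28 and -4.30 for Mcpt8 and 2.04 and -1.52 for Cpa3. These values rest largely on 10 basophil-type cells in RA_4d and 3 in control_7d. With no Mcpt8 UMI in control_4d outside the neutrophil gate, the ratio of 5.28 depends on the 1 CPM added. For Cpa3, the haematopoietic cells of control_4d also held 166 UMIs and those of RA_7d 47, with 0 basophil-type cells in either. The share of the dendritic gate had a ratio of 0.792 at 4 dpf and 1.47 at 7 dpf.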

How the results depend on the processing

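No paired analysis was possible because each group holds 1 library. The absence of replicates, free RNA and cells shared out by marker gates limit all values. Of 52 alternative gene counts 37 stayed within 1.5 times, of 75 gate ratios 70 and of 349 list medians 270 stayed within the spread allowed, and the cause of the moves below was not tested. Counts of genes higher and lower over all haematopoietic cells were 242 and 158 with 10 CPM added, 271 and 247 among genes with at least 1000 UMIs, 216 and 72 at a log2 ratio of 1, and 318 higher with gates weighted equally. Without the neutrophil gate they were 108 and 112, 134 and 159, and 97 and 60 under the first 3 settings, 554 higher with cells thinned to 4000 UMIs and 568 lower with gates weighted equally. Weighting gates of at least 50 cells equally, which leaves out the T gate with its 40 control cells, reversed 10 genes over all haematopoietic cells: Gzma (-0.00), Ccl5 (-0.80), Ifi205 (-0.04), Sirpb1c (-0.01), C4b (0.52), Ltb4r1 (-0.17), Mmp9 (-0.74), Cd3d (-0.11), Ncr1 (-0.01) and Klrb1c (-0.01). Without the neutrophil gate it reversed 8: Gzma (-0.20), Ccl5 (-0.06), Sirpb1c (-0.03), C4b (0.43), Mmp9 (-0.85), Cd3d (-0.17), Ncr1 (-0.08) and Klrb1c (-0.05). The neutrophil gate ratio was 3.79 with a looser cell filter, the osteoclast ratio 1.44 with doubled thresholds and 1.55 on thinned cells, and the other myeloid ratio 0.732 on thinned cells. The T gate held 2.08% in control_4d and 3.49% in RA_4d with the looser filter, closer than in the main setting.

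Among list medians, adding 10 CPM gave 2.30 for neutrophil granule, -0.27 for CXC chemokine, 0.37 for T and cytotoxic, 0.67 for mast and basophil and -0.63 for resident-type genes. Genes with at least 1000 UMIs gave 2.90 for neutrophil granule, -0.98 for CXC chemokine, 3.20 for mast and basophil and -0.44 for repair genes. The looser filter gave 2.66 for neutrophil granule, -0.60 for MHC class II, -0.57 for repair and, with the sign reversed, 0.57 for muscle and Schwann genes. Thinning gave 2.74, -0.60 and -0.38 for neutrophil granule, MHC class II and repair genes. Equal gates gave 1.15 for neutrophil granule, -0.96 for CXC chemokine, 0.39 for mast and basophil, -0.59 for repair and, with the sign reversed, -0.01 for T and cytotoxic genes. Mast and basophil genes had 3.46 under the stricter rule and 3.63 without the 5% of highest Scrublet scores.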

Other observations

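Cell cycle genes were higher over all haematopoietic cells of RA_4d, with 10 of 22 past 0.5 and a median log2 ratio of 0.46, and not within C1q-high macrophages, where 0 of 22 passed and the median was 0.01. Over all genes the shares higher by 0.5 were 5.20% in all haematopoietic cells and 1.24% in C1q-high macrophages. Hmgb2, a chromatin protein gene of dividing and immature cells, stood at 234 and 576 CPM and the histone gene Hist1h1b at 47.2 and 120 CPM over all haematopoietic cells, and at 151 and 170 CPM and 26.1 and 23.3 CPM in the macrophages. Outside the neutrophil gate, cells with at least 3 UMIs of cell cycle genes made up 7.72% in control_4d (6.85 to 8.67) and 10.6% in RA_4d (9.37 to 11.9).

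Among genes of phagocyte digestion, 6 of 25 lysosome genes and 6 of 21 lipid handling genes were lower by 0.5 or more over all haematopoietic cells and 0 were higher in either list, while the other 19 and 15 did not pass. Of all genes compared, 3.86% were lower and 5.20% higher. Apoe, the apolipoprotein E gene, went from 9748 to 5779 CPM and the cathepsin D gene Ctsd from 2434 to 1365 CPM. Within C1q-high macrophages 0 of 25 lysosome genes passed 0.5, with a median of -0.07, and Ctsd stood at 3076 and 2341 CPM. Nuclear genes of oxidative phosphorylation (0 of 21 past 0.5, median -0.05) and glycolysis and hypoxia genes (1 of 21 lower, median -0.11) were close in both libraries.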
